A study of Homo sapiens with 2 samples.

Results

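The BCL2 family decides whether mitochondria release the factors that switch on caspases, the proteases that dismantle a dying cell. Survival proteins of the family (encoded by BCL2, BCL2L1 and MCL1) hold the pore-forming effectors (BAK1 among those described here) in check. BH3-only proteins (encoded by BCL2L11, PMAIP1, BID, BAD, BIK and BMF) respond to stress or lost growth signals and either bind the survival proteins or act on the effectors. Several of these genes are under strong transcriptional control, while others are regulated mostly at the protein level, which an expression array does not measure. The 10 genes were taken by symbol: every probe set whose platform annotation gave exactly 1 of these symbols was used. This gave 32 of the 54675 probe sets on the array and 10 of the 19775 genes named on it.

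HEK293T, an established line from human embryonic kidney that expresses a simian viral large T antigen, was transfected with polyethylenimine, a polymer that brings DNA into cells. The group called IRX1::GFP received the vector pcDNA3.1-IRX1::GFP, which encodes the homeobox transcription factor IRX1 joined to green fluorescent protein, and the GFP control received pcDNA3.1-GFP. In both groups RNA was taken 48 h later from cells sorted for GFP, and expression was transient and high. HEK293 cells also carry early genes of an adenovirus, one of which encodes a viral relative of BCL2, so both groups share a background in which cell death control is already altered. There was 1 HG-U133 Plus 2.0 array per condition, so no replicate error and no test between the conditions can be given. Fewer cells with a transcript and less transcript per cell cannot be told apart in such RNA.

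The authors deposited MAS5 signals, which are linear intensity values scaled within each array. The mean without the lowest and highest 2% was 1000.1 in both arrays, and the median signal was 195 in IRX1::GFP and 171 in the GFP control. Olfactory receptor genes, silent in most cells, gave the background: the 90th percentile over their 107 probe sets was 179 in IRX1::GFP and 143 in the GFP control. The one IRX1 probe set read 57.0 in IRX1::GFP and 33.1 in the GFP control, below background in both. Its place relative to the transfected cDNA is not known here, so it checks no label. The 3-prime over 5-prime ratio of the ACTB array controls, a sign of RNA quality, was 1.64 in IRX1::GFP and 3.23 in the GFP control, and that of GAPDH was 1.01 in IRX1::GFP and 1.22 in the GFP control. Its part in the results below was not tested. Of 8 genes typical of HEK293T, 8 were above background in at least 1 array and 7 in both. Their summed signal was 29916 in IRX1::GFP and 23225 in the GFP control. LIN28B alone was lower with IRX1::GFP, at 1436 against 8740 in the GFP control. The neurofilament gene NEFM and the keratin gene KRT18 read 8206 and 4480 in IRX1::GFP against 4292 and 2046 in the GFP control. Of 9 measured marker genes of blood, fibroblasts and endothelium, 3 were above background in both arrays (CD14, COL1A1 and PECAM1), and the summed signal over all 9 was 4072 in IRX1::GFP and 1798 in the GFP control. COL1A1, a collagen gene, made up most of that difference, at 2571 in IRX1::GFP and 631 in the GFP control. CD3E of T cells and DCN of fibroblasts were above background only in the GFP control, at 168 and 117 in IRX1::GFP against 244 and 184 in the GFP control. COL3A1 read 27.5 in IRX1::GFP and 76.2 in the GFP control, below background in both. PTPRC, the pan-leukocyte marker, and VWF and CDH5 of endothelium were below background in both.

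The stretches before the start sites of 3 members are shown as examples of both directions, picked after their values were seen. All probe sets of PMAIP1 were lower and all of BCL2L11 and BAD higher with IRX1::GFP. BCL2L1, whose probe sets were also all higher, is not shown because 1 of its 2 probe sets past the filter read nearly alike on both arrays. BID, whose 3 probe sets were all higher too, none by 2-fold, is not shown either. The motifs marked below were not found before its starts. Each stretch shown is the 250 bases before the first listed start of the gene in RefSeq on GRCh38.p14, written 5′ to 3′ on the strand of the gene. Capitals mark matches to TGACG, the half-site of factors of the CREB and ATF family, or to GTAAACA, a forkhead site.
PMAIP1, chr18:59899746-59899995, plus strand: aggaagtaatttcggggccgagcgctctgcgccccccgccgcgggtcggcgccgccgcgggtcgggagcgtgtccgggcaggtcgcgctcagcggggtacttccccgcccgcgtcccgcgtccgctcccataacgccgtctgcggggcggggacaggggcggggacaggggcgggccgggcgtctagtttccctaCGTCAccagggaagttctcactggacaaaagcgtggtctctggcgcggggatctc
BCL2L11, chr2:111120664-111120913, plus strand: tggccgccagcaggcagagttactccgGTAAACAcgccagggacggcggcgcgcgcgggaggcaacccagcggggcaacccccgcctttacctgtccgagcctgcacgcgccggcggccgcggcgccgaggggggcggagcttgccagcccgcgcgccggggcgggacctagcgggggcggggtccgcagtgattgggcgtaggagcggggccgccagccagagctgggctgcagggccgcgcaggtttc
BAD, chr11:64284705-64284954, minus strand: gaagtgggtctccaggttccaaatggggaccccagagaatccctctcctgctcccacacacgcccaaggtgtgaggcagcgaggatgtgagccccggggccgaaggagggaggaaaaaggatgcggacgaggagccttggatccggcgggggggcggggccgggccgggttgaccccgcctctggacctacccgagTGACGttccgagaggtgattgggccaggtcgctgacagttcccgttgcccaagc

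Both strands were searched, in the 250 bases before each start, and the motifs do not overlap in these windows. There were 15 windows, for 8 members, and none for MCL1 and BIK, which were not searched. TGACG or its complement was found in 6 of the 15, which belong to 5 members (BAD, BCL2, BCL2L1, BMF and PMAIP1), and in 21.2% of all 35116 windows. Overlapping windows of BAD hold the same site, so the 6 windows are not 6 separate sites. In PMAIP1 it lay 55 to 51 bases before the start, and in BAD 54 to 50 bases before the start shown and 93 to 89 before another. GTAAACA was found in 1 of the 15 windows, that of BCL2L11, 223 to 217 bases before the start, and in 2.98% of all windows. ACANNTGT, the palindrome that Iroquois proteins are known to bind in Drosophila, was in none of the 15 windows and in 4.71% of all. A match says only that these letters are present, and binding was not measured.

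Of the 10 genes, 8 passed a filter on dim probe sets (a mean of both signals at or above 183, the 50th percentile), each represented by its brightest probe set. With IRX1::GFP, 3 of the 8 were higher by 2-fold or more (BCL2L1, BIK and BCL2L11), 1 was at least 2-fold lower (PMAIP1) and 4 were within 2-fold (BAD, BID, MCL1 and BAK1). None changed 4-fold. BCL2 and BMF did not pass. Of these 8 members 37.5% were called higher and 12.5% lower, against 10.4% higher and 5.34% lower over all 12193 genes that passed. After the arrays were centred on the median ratio, the same members were called, while the share of higher genes among all called genes was 54.8%, against 66.1% on the deposited signals. The median log2 ratio (IRX1::GFP divided by GFP control) was 0.70 over the 8 members and 0.07 over all genes. Before centring, the median over all probe sets, dim ones included, was 0.11, and over genes past a filter at the 75th percentile it was -0.03. A list of 8 genes on a single pair of arrays allows no test, and BIK passed the filter through its IRX1::GFP signal alone. The members were chosen with earlier results of these data known. Their shares and medians, here and below, are therefore not independent of that choice.

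**Figure D1:**
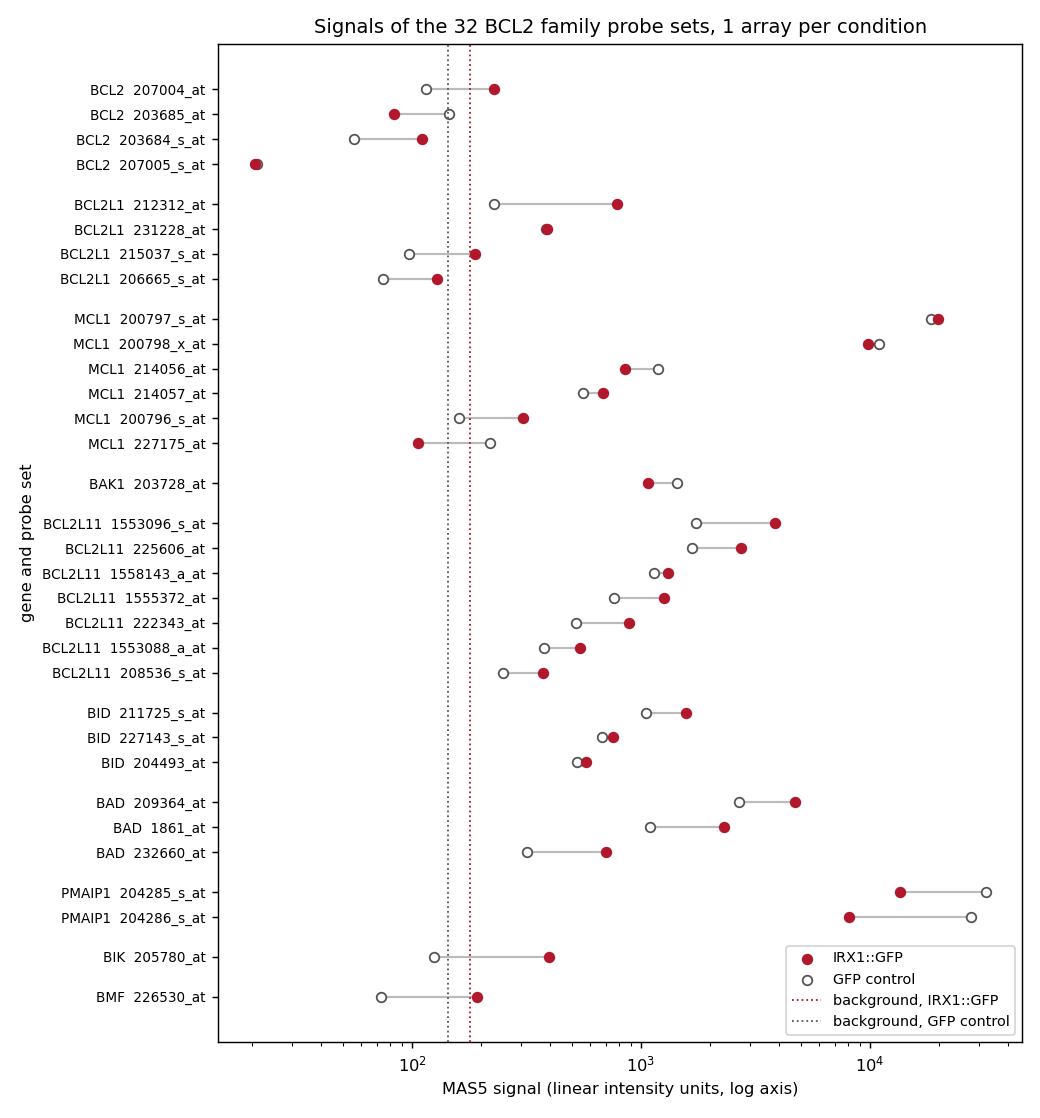
MAS5 signals (x, log axis) of all 32 BCL2 family probe sets (y), with IRX1::GFP as filled red points, GFP control as open grey points and dotted lines at the background of each array. Both PMAIP1 probe sets lie far to the left with IRX1::GFP, while all 7 BCL2L11 and all 3 BAD probe sets lie to the right. The 4 BCL2 probe sets lie near or below background.

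Counted by probe set, 24 of the 32 passed the filter. With IRX1::GFP, 5 of these were higher by 2-fold or more, 2 lower by 2-fold or more and 17 within 2-fold. That is 20.8% higher and 8.33% lower, against 9.65% higher and 5.81% lower over all 27307 probe sets past the filter. The 5 were 1 of BCL2L1, 1 of BIK, 1 of BCL2L11 and 2 of BAD, and the 2 lower ones were both of PMAIP1. The log2 ratio was above 0 for 19 of the 24 member probe sets (79.2%), against 52.7% of all. Among the 19, the BIK probe set and MCL1 probe set 200796_s_at passed the filter through their IRX1::GFP signals alone. Probe sets of one gene are no replicates, since they read the same RNA. Across the array, the SD of the log2 ratio between different probe sets of one gene was 0.49 over 5930 genes, and this spread leaves out any difference between cultures.

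PMAIP1 was the only one of the 8 genes lower by 2-fold. It encodes NOXA, a BH3-only protein that binds chiefly MCL1 and promotes its degradation, and its gene is a known target of the stress factor ATF4. The brighter probe set (204285_s_at) read 13584 in IRX1::GFP and 32055 in the GFP control, 2.36-fold lower. The other (204286_s_at) read 8124 in IRX1::GFP and 27525 in the GFP control, 3.39-fold lower. Both probe sets were far above background on both arrays, so the difference does not rest on dim signals. The log2 ratios were -1.24 and -1.76, a gap between the probe sets of about the size of the spread given above. Both carry the suffix _s_at, which marks probes shared by several transcripts, so a contribution of related sequences was not separated. ATF4 itself read 60016 in IRX1::GFP and 50058 in the GFP control, and DDIT3, a stress-induced transcription factor downstream of ATF4, read 14672 in IRX1::GFP and 18393 in the GFP control. Both were within 2-fold, and these 2 genes were chosen from the lists of other genes after their values were seen. Whether ATF4 had a part in the lower PMAIP1 signals was not tested, and ATF4 protein was not measured.

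BCL2L11 encodes BIM, a BH3-only protein that binds all survival proteins of the family and also activates the effectors. All 7 of its probe sets passed the filter, were above background on both arrays and were higher with IRX1::GFP. The brightest (1553096_s_at) read 3844 in IRX1::GFP and 1745 in the GFP control, 2.20-fold higher. The next (225606_at) read 2724 in IRX1::GFP and 1667 in the GFP control, 1.63-fold higher. Probe set 1558143_a_at differed least, at 1317 in IRX1::GFP and 1134 in the GFP control. The gene was thus called on 1 of 7 probe sets, and the other 6 were higher by less than 2-fold, with log2 ratios between 0.22 and 0.77. Probe set 1555372_at read 1262 in IRX1::GFP and 761 in the GFP control, and 222343_at read 885 in IRX1::GFP and 520.3 in the GFP control. Probe set 1553088_a_at read 539.6 in IRX1::GFP and 376 in the GFP control, and 208536_s_at read 373 in IRX1::GFP and 250.2 in the GFP control. BIM exists in several splice forms, and which of them each probe set reads was not determined here. The call did not hold for the mean over probe sets, where the log2 ratio of BCL2L11 was 0.67, nor with only _at probe sets, where it was 0.71. FOXO3, a forkhead factor known to induce BIM, read 7723 in IRX1::GFP and 9354 in the GFP control, within 2-fold. It was also picked after its value was seen. Whether FOXO3 had a part in the higher BCL2L11 signals was not tested, and FOXO3 protein was not measured.

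BAD encodes a BH3-only protein that binds BCL2 and the BCL2L1 product, and that kinases of growth factor signalling inactivate by phosphorylation. All 3 of its probe sets were higher with IRX1::GFP. The brightest (209364_at) read 4684 in IRX1::GFP and 2665 in the GFP control, 1.76-fold higher. The second (1861_at) read 2293 in IRX1::GFP and 1091 in the GFP control, 2.10-fold higher. The dimmest (232660_at) read 706 in IRX1::GFP and 317 in the GFP control, 2.23-fold higher. BAD was therefore within 2-fold on its brightest probe set and past it on the others, and the mean log2 ratio over the 3 was 1.01. The 3 log2 ratios, 0.81, 1.07 and 1.15, lay closer together than the spread between probe sets of one gene.

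BIK encodes a BH3-only protein that resides mainly at the endoplasmic reticulum. Its single probe set (205780_at) read 395 in IRX1::GFP and 124 in the GFP control. The GFP control signal was below background, so BIK was at least 2.76-fold higher with IRX1::GFP, as measured against that background of 143. BMF encodes a BH3-only protein that is tethered to the cytoskeleton and takes part in death after loss of attachment. Its single probe set (226530_at) read 192 in IRX1::GFP and 73.1 in the GFP control, at least 1.34-fold higher. BMF did not pass the filter, and its IRX1::GFP signal lay just above the background of 179.

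BID links death receptors to mitochondria, since cleavage by the initiator caspase CASP8 turns its protein into an activator of the effectors. Its brightest probe set (211725_s_at) read 1565 in IRX1::GFP and 1047 in the GFP control, 1.49-fold higher. The others read 757 and 575 in IRX1::GFP against 674 and 524 in the GFP control. All 3 probe sets were higher, none by 2-fold, and the 2 dimmer ones differed by less than the spread between probe sets of one gene. BAK1, the only pore-forming effector among the 10 genes, had 1 probe set (203728_at), which read 1068 in IRX1::GFP and 1439 in the GFP control. This is a log2 ratio of -0.43, smaller in size than that spread.

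**Figure D2:**
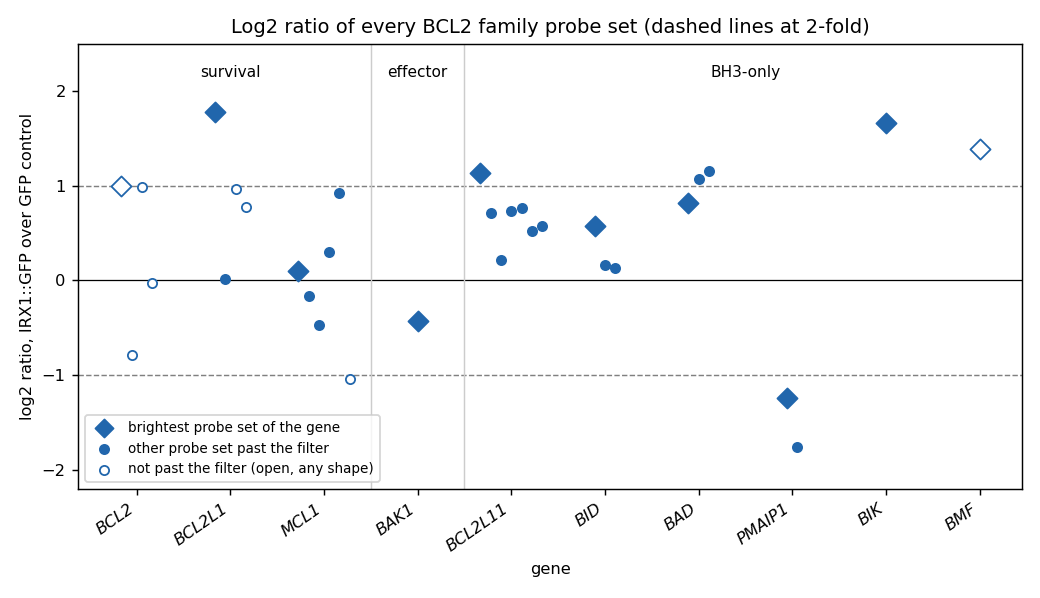
Log2 ratio, IRX1::GFP divided by GFP control (y), for each probe set of the 10 genes (x), grouped by role, with diamonds for the brightest probe set of a gene, open symbols for probe sets not past the filter and dashed lines at 2-fold. Among the 10 genes, PMAIP1 is the only BH3-only gene below 0. BCL2L1 and MCL1 have probe sets that disagree, and BIK and BMF rest on 1 probe set each.

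Among the survival genes, BCL2L1, which encodes BCL-XL, had the highest log2 ratio of the 8 members, 1.78, but its probe sets disagreed. The brightest (212312_at) read 789 in IRX1::GFP and 229 in the GFP control, 3.45-fold higher and above background on both arrays. The second (231228_at) read 388 in IRX1::GFP and 383 in the GFP control. The mean log2 ratio over these 2 probe sets was 0.90, within 2-fold. Probe set 215037_s_at read 189 in IRX1::GFP and 96.7 in the GFP control, at least 1.32-fold higher, and 206665_s_at read 128 in IRX1::GFP and 74.8 in the GFP control, both below background. BCL2L1 has splice forms of opposite function, and which of them the probe sets read was not determined here.

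MCL1 encodes a short-lived survival protein on which many cells depend, and its product is the main partner of NOXA. The brightest probe set (200797_s_at) read 19811 in IRX1::GFP and 18511 in the GFP control, and the next (200798_x_at) read 9762 in IRX1::GFP and 10909.9 in the GFP control. These log2 ratios, 0.10 and -0.16, were smaller in size than the spread between probe sets, and that of the brightest became -0.01 after median centring. Probe set 214056_at read 851 in IRX1::GFP and 1183 in the GFP control, and 214057_at read 685 in IRX1::GFP and 558 in the GFP control. Probe set 200796_s_at read 304 in IRX1::GFP and 160.4 in the GFP control, 1.90-fold higher. The dimmest (227175_at) read 106 in IRX1::GFP, below background, and 219 in the GFP control, at least 1.22-fold lower, and was too dim for the filter. No MCL1 probe set past the filter reached 2-fold in either direction, whereas both PMAIP1 probe sets did, a difference between the ratios of the 2 genes that was not tested.

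BCL2 itself, the founding survival gene, could not be measured well. Its probe sets read 229, 83.4, 110.5 and 20.6 in IRX1::GFP, against 115, 144, 55.6 and 21.0 in the GFP control in the same order. Of the 4, the first alone was above background in IRX1::GFP and the second alone in the GFP control, so the 2 arrays shared no measured probe set and no direction is given. None of the 4 passed the filter.

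By role, and within the 10 genes only, 2 of the 5 BH3-only genes that passed the filter were at least 2-fold higher. Of the rest, 1 was lower and 2 were within 2-fold, and the median log2 ratio over the 5 was 0.81. BIK, 1 of the 2 called higher, passed the filter through its IRX1::GFP signal alone, which favours such a call. Over all genes, 10.4% were called higher and 5.34% lower. Of the 16 probe sets of these BH3-only genes past the filter, 14 had a ratio above 0, against 52.7% of all probe sets. The other 2 were those of PMAIP1. HRK, a BH3-only gene outside the 10, had 4 probe sets past the filter, all below 0. Of the survival genes, 2 passed, with 1 higher and 1 within 2-fold, and 5 of their 7 probe sets past the filter were above 0. Among the 5, MCL1 probe set 200796_s_at likewise passed through its IRX1::GFP signal alone, at 304 against 160.4 in the GFP control. Levels were not compared between genes, because probe sets differ in how strongly they bind.

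The rest of the family came from a list of 12 genes, also chosen with earlier results of these data known. It held 11 measured genes, of which 7 passed the filter. Of these, 2 rose at least 2-fold in IRX1::GFP cells and none fell that far, with a median log2 ratio of 0.53. That is 28.6% higher and 0% lower, against 10.4% and 5.34% over all genes. BAX, the second main pore-forming effector, read 3570.3 in IRX1::GFP and 1341 in the GFP control, 2.66-fold higher, and both of its filtered probe sets rose 2-fold or more. BCL2L12 read 4781 in IRX1::GFP and 1433 in the GFP control, 3.33-fold higher, on 1 probe set. BAX and BAK1, which share the effector role, thus had log2 ratios of 1.41 and -0.43. HRK, a BH3-only gene known from neurons, read 1699 in IRX1::GFP and 3084 in the GFP control, 1.81-fold lower, and all 4 of its probe sets past the filter were lower by less than 2-fold. BNIP3 and BNIP3L, which encode mitochondrial proteins known for their role in mitophagy, read 18363 and 7094 in IRX1::GFP against 10807 and 4925 in the GFP control. The survival gene BCL2L2 read 996 in IRX1::GFP and 1221 in the GFP control, and BCL2L13 read 3168 in IRX1::GFP and 3874 in the GFP control. BOK read 208 in IRX1::GFP and 85.3 in the GFP control, at least 1.45-fold higher, without passing the filter. BCL2A1, BCL2L10 and BCL2L14 were below background in both arrays, and BBC3 was not analysed here.

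Downstream of the family, 10 genes of the apoptosome and caspase list passed the filter, with 1 higher, 1 lower and a median of -0.01. ENDOG, a mitochondrial nuclease, read 2364 in IRX1::GFP and 764 in the GFP control, 3.09-fold higher, and CASP8 read 361 in IRX1::GFP and 1438 in the GFP control, 3.98-fold lower, each on 1 probe set. CASP6, an executioner caspase, was 1.60-fold higher and DFFA, which encodes the inhibitor of a caspase-activated nuclease, 1.56-fold lower on their brightest probe sets, though the DFFA probe sets ranged from -0.64 to 0.39 on the log2 scale. Among 7 genes for inhibitor of apoptosis proteins and their antagonists, 1 was lower, none was higher and the median was -0.18. That gene was XIAP, which encodes a direct caspase inhibitor and read 6360.3 in IRX1::GFP and 13303 in the GFP control, 2.09-fold lower. All 7 XIAP probe sets past the filter were lower, with log2 ratios between -1.39 and -0.86, and 2 of them passed 2-fold. BIRC2 was 1.67-fold lower, HTRA2 1.28-fold lower and NAIP 1.41-fold higher. None of 7 death receptor pathway genes passed 2-fold, with a median of 0.29. CFLAR, which encodes an inhibitor of caspase activation at the receptor, was 1.83-fold lower as read by the brightest probe set, with log2 ratios between -0.91 and 0.09 over its 7 probe sets past the filter. TNFRSF10D was 1.49-fold and TRADD 1.43-fold higher. FAS, a death receptor, was 1.41-fold lower by the same measure, but its 4 probe sets disagreed in direction, with log2 ratios between -0.50 and 0.96.

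The last list held 23 measured genes for proteins that bind, modify or induce members, and all 23 passed the filter. Of these, 2 were higher and 1 was lower, and the median was 0.04. FBXW7, the substrate receptor of a ubiquitin ligase that acts on MCL1, read 1760 in IRX1::GFP and 8169 in the GFP control, 4.64-fold lower. Its 4 filtered probe sets disagreed, with 3 down 2-fold or more and 1 up 2-fold or more. PIM1, a kinase that phosphorylates BAD, read 1588 in IRX1::GFP and 566 in the GFP control, 2.81-fold higher, and SFN, of the phosphoserine-binding family that sequesters BAD, was 2.11-fold higher. BAG1, a chaperone partner that binds BCL2, was 1.85-fold higher. Over all 5 lists together, 5 of 54 genes past the filter were higher and 3 lower, which is 9.26% and 5.56% and near the shares over all genes, and the median log2 ratio was 0.02.

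**Figure D3:**
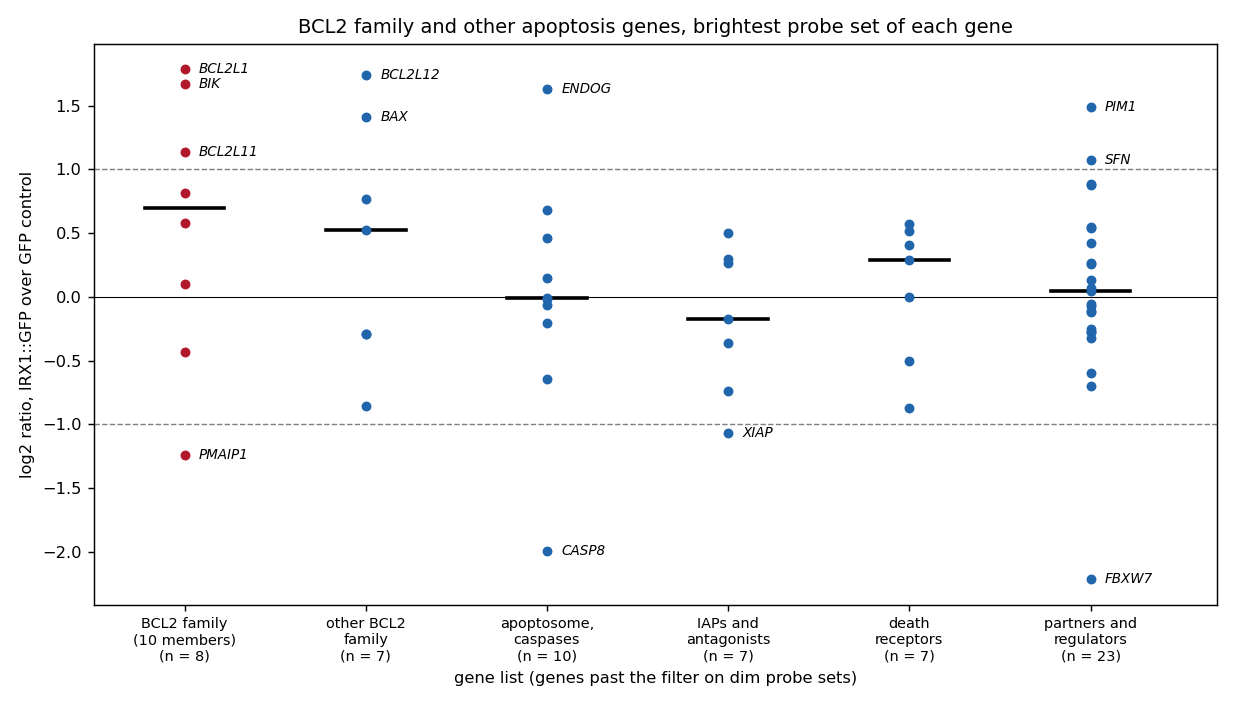
Log2 ratio, IRX1::GFP divided by GFP control (y), for each gene past the filter in the BCL2 family members and 5 lists of other apoptosis genes (x), with black bars at the medians, dashed lines at 2-fold and names for genes past it. The median is 0.70 for the 8 members and 0.53 for the other BCL2 family genes, and between -0.18 and 0.29 for the other lists.

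How far the ratio of each member depended on the processing differed between genes. PMAIP1 was lower by 2-fold or more and BIK higher by 2-fold or more in all 8 alternatives in which each had a value. BCL2L1 fell within 2-fold in 1 of 8 alternatives and BCL2L11 in 2 of 9, those that use more than the brightest probe set or another one. BAK1 and BID stayed within 2-fold in all 9. These counts include the other filters, which cannot change the ratio of a gene that has a value. BIK and BAK1 have 1 probe set each, an _at one. For these 2 genes the mean over probe sets and the only _at setting cannot change the ratio either.

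**Figure D4:**
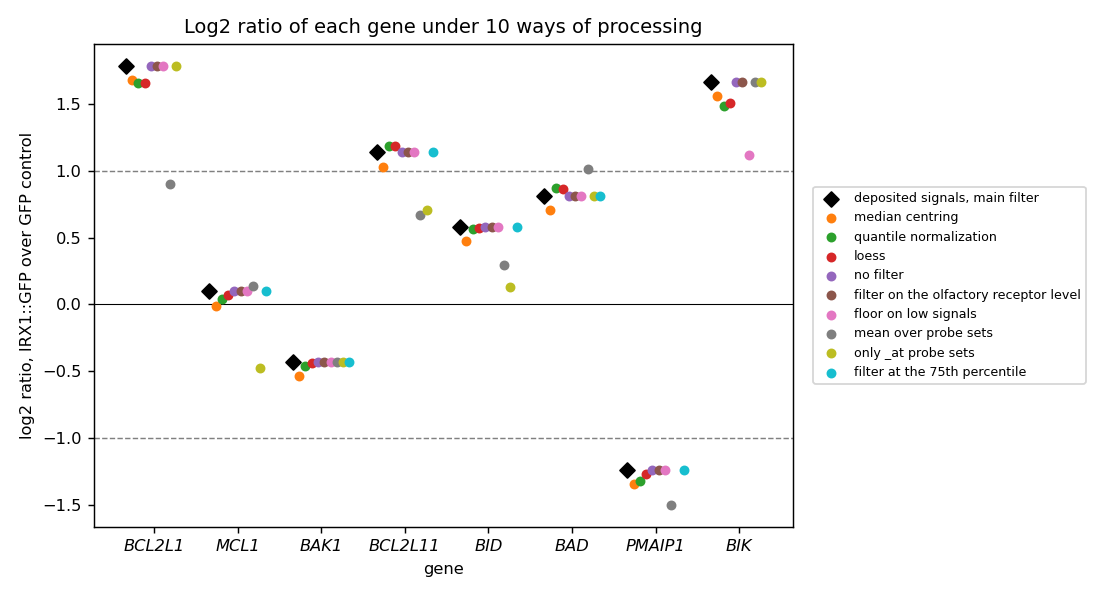
Log2 ratio, IRX1::GFP divided by GFP control (y), for the 8 BCL2 family genes past the filter (x) on the deposited signals (black diamonds) and under 9 alternatives (coloured points), with dashed lines at 2-fold. PMAIP1 stays below -1 and BIK above 1 wherever they have a value, while BCL2L1 and BCL2L11 fall within 2-fold in some alternatives.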

How the data were processed

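Biotin-labelled RNA of GFP-sorted HEK293T cells was hybridised to 1 array per condition. The authors deposited linear intensity values made with MAS5, a tool listed in the submitters' processing notes. Its version is not given in the sources used, nor is its target value. Whether an array held 1 culture or a pool was not settled, and precision is limited by the number of arrays.

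Of 54675 probe sets, 41097 had 1 gene symbol in the platform annotation, 1801 had several and 11777 were unnamed here. Symbols were updated through the RefSeq gene table of GRCh38.p14, which held 41043 of them. The log2 ratio (IRX1::GFP divided by GFP control) was computed for the brightest probe set of each gene with a mean signal at or above 183, and called at 2-fold. A fold with 1 signal below background is a lower bound against that background. Named genes are all members, the genes of the list of other BCL2 family genes and up to 4 of each other list with the largest change. ATF4, DDIT3 and FOXO3 fall outside this rule and were picked after their values were seen. The members and lists were chosen with earlier results of these data known. Alternatives tried were quantile normalization, median centring, loess (span 0.3), 3 other filters, a floor at the 50th percentile, the mean over probe sets and only _at probe sets. The ratio, call and scaling steps were tested on simulated data with 1 probe set per gene and true changes well past 2-fold. The filter and the choice among probe sets were not part of that test. The scripts ran in Python 3.11.15 with statsmodels 0.14.6 for loess, pandas 2.3.3 and numpy 2.4.6 for the ratios, and matplotlib 3.10.9 for plots. Some genes of the lists are not reported here.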

Additional observations from a re-analysis of the deposited data

How the results depend on the processing

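No paired analysis was possible because a single array stood for each condition, and none could be left out. With the filter at the 75th percentile, 6 BCL2 family genes passed. Of these, 1 (BCL2L11) was at least 2-fold higher and 1 (PMAIP1) lower, since BCL2L1 and BIK did not pass. Over all 7678 genes past that filter, 513 were higher and 415 lower. By probe set, 2 of the members were higher. Without a filter, 3456 of 19775 genes were higher and 1983 lower, against 1267 and 651 of 12193 with it. BMF then joined the members called higher, 4 of 10, and 8 other apoptosis genes were higher, against 5. With only _at probe sets, 7 members and 9302 genes were counted. No member gene and no member probe set was called lower, because both PMAIP1 probe sets are left out there. Higher were 2 members, 3 other apoptosis genes and 947 of all genes, and 542 of all genes were lower. The median log2 ratio of the members, 0.70, was 0.34 with the filter at the 75th percentile, 0.48 as the mean over probe sets and 0.90 without a filter, and lay within these values in the other alternatives. The log2 ratio was below -1 for PMAIP1 in all 8 alternatives that give it a value, between -1.50 and -1.24, and above 1 for BIK in all 8, between 1.12 and 1.67, the lowest with low signals raised to a floor above the background used for its bound. For BCL2L1 it was above 1 in 7 of 8, and for BCL2L11 in 7 of 9. These counts include the 3 other filters, which cannot change the ratio of a gene that has a value. For BIK, with 1 probe set, an _at one, the mean over probe sets and the only _at setting cannot change it either. That of BAD passed 1 only as the mean over probe sets, and MCL1 was below 0 in 2 of 9, at -0.01 after median centring and -0.48 with only _at probe sets. Signals of BCL2, BMF and BIK near or below background limit what can be said of these genes.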
